A study of Mus musculus with 8 samples.

Results

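The genes described here were 10 members of the fibroblast growth factor (FGF) and hepatocyte growth factor (HGF) systems: the FGF ligands Fgf2, Fgf7, Fgf10 and Fgf18, the FGF receptors Fgfr1, Fgfr2, Fgfr3 and Fgfrl1, the ligand Hgf and its receptor Met. They were taken by gene symbol from a count table of 53801 genes, and each symbol matched 1 row. The table held 8 RNA-seq libraries of stromal cells sorted by flow cytometry for PDGFRα and PDPN, and against the leukocyte marker CD45 and the endothelial marker CD31, from subcutaneous MO5 tumors. MO5 is the B16 mouse melanoma line carrying an ovalbumin gene. The hosts were adult ADAM12-GFP mice on a C57Bl/6 background, in which a bacterial artificial chromosome places Cre and GFP under Adam12 control, so cells of both groups came from transgenic, tumor-bearing hosts. GFP+ cells (ADAM12+, 4 libraries) were compared with GFP- cells (ADAM12-, 4 libraries). By the convention in the study's methods replicates are mice unless it says otherwise, but the labels tie no library to an animal and do not say whether a GFP+ and a GFP- library came from the same one.

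FGFs are secreted proteins that bind heparan sulfate and activate tyrosine kinase receptors. FGF7 and FGF10 form a subfamily made by mesenchymal cells that acts on the epithelial IIIb splice form of FGFR2, whereas FGF2 and FGF18 act mainly on mesenchymal IIIc forms of the receptors. HGF is likewise a mesenchymal product, secreted as an inactive precursor, and its receptor MET is known from epithelial cells and from cells of the melanocyte lineage.

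Library totals ran from 883144 to 17535099 reads in GFP- cells and from 8776925 to 31666734 in GFP+ cells. The shallowest library was GFP- replicate 3, in which 1 read equalled 10.99 normalised counts (raw counts divided by the DESeq2 size factor, the unit used throughout unless stated). Adam12 itself was 920 to 1693 in GFP- and 1833 to 2938 in GFP+ libraries (log2 fold change 0.75 ± 0.24 (SE), DESeq2 adjusted p = 0.0266), so its transcript was also present in the cells sorted as negative. The sort markers Pdgfra and Pdpn were both at 1609 or more in every library, and both were higher in GFP+ cells (log2 fold changes 1.32 and 0.70). Ptprc, which encodes CD45, ran from 119 to 1703 and Pecam1, which encodes CD31, from 81.0 to 516 over the 8 libraries, with overlapping groups. Of 8 fibroblast markers, 6 were higher in GFP+ cells, with a summed level of 253600 to 559300 in GFP- and 666200 to 764400 in GFP+ libraries. All 12 melanocyte markers were lower, with a summed level of 26240 to 76640 in GFP- and 4694 to 12110 in GFP+ libraries. None of the 12 was at 0 in every library of a group.

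In GFP+ cells, 3 of the 4 FGF ligands were higher, none of the 4 FGF receptors changed past the threshold, and Met was lower. The largest rise was that of Fgf10, 6.47-fold, followed by Fgf7, 2.28-fold, and Fgf2, 1.67-fold, while Met fell 4.90-fold. With DESeq2 and an adjusted p under 0.05 over 15283 genes, 3 of the 10 genes were thus called higher, beside 4.66% of all genes tested, and 1 was called lower, beside 4.76%. The edgeR quasi-likelihood test called the same 3 and the same 1, beside 2.83% and 2.28% of the 14323 genes it tested. The groups did not overlap for these 4 genes: 3 lay higher in every GFP+ library, as did 6.37% of all genes tested, and 1 lay lower, as did 5.95%. The fibroblast markers moved with the ligands, 6 of 8 higher with a median log2 fold change of 0.89, and their part in the ligand levels was not tested. In bulk samples, fewer cells expressing a gene and less of its RNA per cell cannot be told apart.

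**Figure D1:**
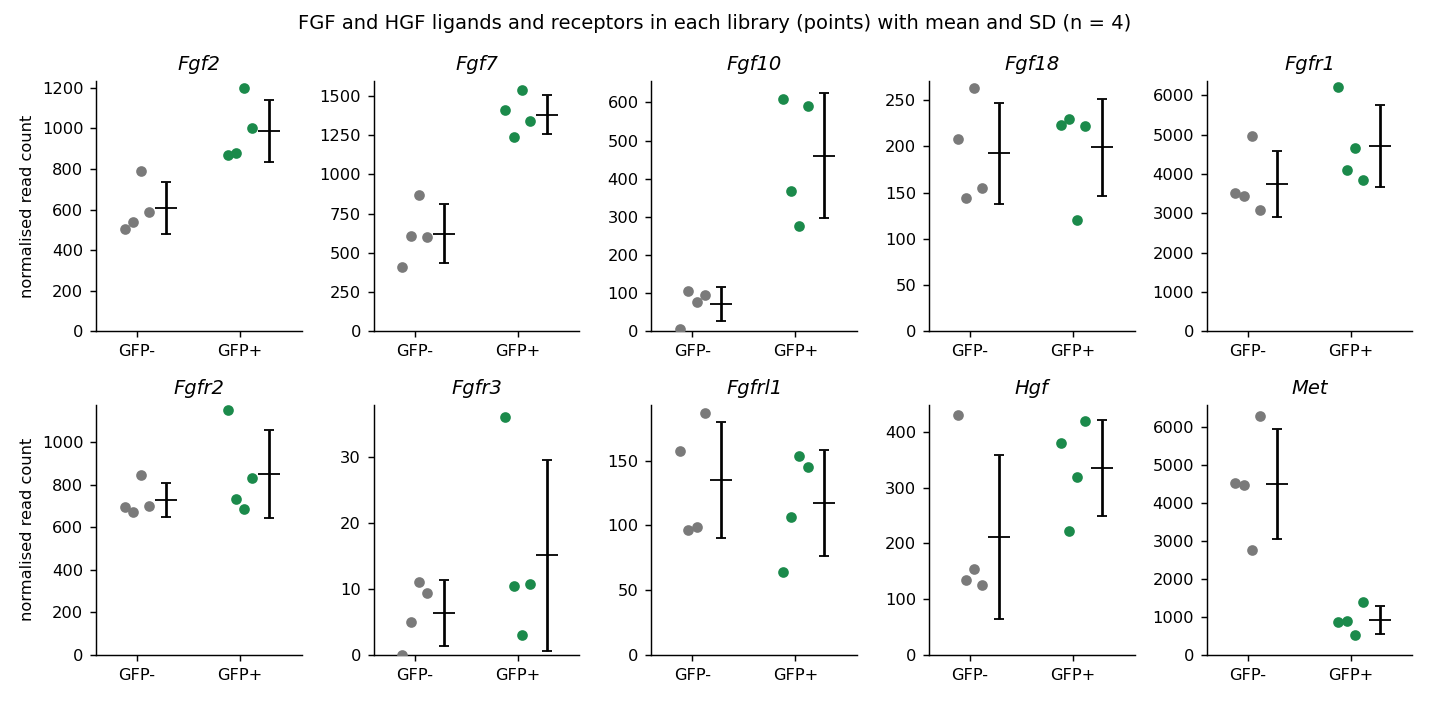
Normalised read counts (vertical axes, each from 0) of the 10 genes in the 4 GFP- (grey) and 4 GFP+ (green) libraries, 1 point a library, with the mean and SD of each group beside them. The points of the groups are separate for Fgf2, Fgf7, Fgf10 and Met, and overlap for the other genes; Hgf has 1 GFP- library at 430.

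Among the ligands, Fgf10, which acts on epithelial FGFR2, showed the widest separation. Its gene lies on chromosome 13 (GRCm38, 118669791 to 118792115, plus strand). Its count was 6.78, 105, 76.9 and 95.6 in GFP- replicates 1 to 4 and 608, 368, 277 and 590 in GFP+ replicates 1 to 4. Every GFP+ library was thus above every GFP- library, and GFP- replicate 1, with 5 reads, stood lowest. Its log2 fold change was 2.69 ± 0.58 (SE; DESeq2 adjusted p = 1.47e-04, edgeR 0.0185). It stayed past the threshold in all 17 alternative fits, with values from 2.26, without that lowest library, to 2.98. The GFP- mean rested on few reads in 2 libraries, 5 in replicate 1 and 7 in replicate 3, so the size of the ratio is less certain than its direction. An antisense transcript, Gm16263, overlaps exons of Fgf10, and counting used the strand.

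Fgf7, the other ligand of this subfamily, also called keratinocyte growth factor, lies on chromosome 2 (126034658 to 126091185, plus strand). Its count was 410, 607, 868 and 603 in GFP- and 1408, 1240, 1539 and 1338 in GFP+ replicates 1 to 4. The lowest GFP+ library was above the highest GFP- library, which was the shallow replicate 3. Fgf7 rose by 1.19 ± 0.23 on the log2 scale (SE; DESeq2 adjusted p = 1.04e-05, edgeR 0.00519), and it was called in all 17 alternative fits, at 1.04 to 1.34. The ratio of Fgf10 to Fgf7, both per kilobase of exon, was 0.0117 to 0.123 in GFP- and 0.127 to 0.311 in GFP+ libraries. Fgf10 therefore remained the less abundant of the pair in each of the 8 libraries.

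The bases immediately upstream of the RefSeq starts of these paralogous ligands are shown because both genes were higher in GFP+ cells. Both are read 5′ to 3′ on the plus strand of GRCm38.p6, 250 bases each, from chr2:126034408-126034657 for Fgf7 and chr13:118714449-118714698 for Fgf10, and neither overlaps an annotated exon of its gene. Capitals would mark a match, on either strand, to TATAAA, to the AP-1 letters TGANTCA or to the E-box letters CACGTG or CATGTG, and neither stretch holds any.
Fgf7: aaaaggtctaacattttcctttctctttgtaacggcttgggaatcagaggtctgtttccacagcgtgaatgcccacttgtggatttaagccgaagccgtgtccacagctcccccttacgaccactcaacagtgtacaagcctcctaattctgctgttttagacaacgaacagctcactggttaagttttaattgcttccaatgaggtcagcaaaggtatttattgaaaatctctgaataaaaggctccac
Fgf10: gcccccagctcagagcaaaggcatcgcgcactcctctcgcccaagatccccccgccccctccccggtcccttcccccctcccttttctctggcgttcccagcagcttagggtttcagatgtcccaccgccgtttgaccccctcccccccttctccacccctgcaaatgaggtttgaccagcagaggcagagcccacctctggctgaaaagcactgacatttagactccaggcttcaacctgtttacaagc
The stretches differ in base composition, with 43.6% G and C for Fgf7 and 61.2% for Fgf10. Among the 32851 RefSeq promoters of 300 bases (250 before and 50 after the start), TATAAA was found in 13.6%, TGANTCA in 7.81%, CACGTG in 7.15% and CATGTG in 14.2%. The RefSeq start of Fgf10 lies inside the longer GENCODE gene interval given above. That these letters are not in the windows says nothing of whether such factors act on the genes.

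Fgf2, also called basic FGF, a broadly acting ligand without a classical secretion signal, lies on chromosome 3 (37348346 to 37410108, plus strand). Its count was 505, 541, 791 and 586 in GFP- and 869, 881, 1198 and 1001 in GFP+ replicates 1 to 4. The groups were separate, but by little: the shallow GFP- replicate 3, with 72 reads, lay close under the lowest GFP+ library. Fgf2 rose by 0.74 ± 0.20 on the log2 scale (SE; DESeq2 adjusted p = 0.00557, edgeR 0.0403). Of 17 alternative fits, 14 called Fgf2. It missed the threshold without GFP- replicate 2 (0.69, adjusted p = 0.0532), without GFP+ replicate 3 (0.64, adjusted p = 0.0528) and with all libraries thinned to 883144 reads (0.72, adjusted p = 0.0522), in DESeq2 each time. Exons of Gm43439, on the same strand, overlap those of Fgf2, so that some of its reads may have been set aside as ambiguous, and exons of Nudt6 overlap on the opposite strand.

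Fgf18, a ligand known from skeletal and lung development, lies on chromosome 11 (33117430 to 33147400, minus strand). Its count was 208, 144, 264 and 155 in GFP- and 224, 229, 121 and 222 in GFP+ replicates 1 to 4. The groups overlapped, and GFP+ replicate 3 was the lowest of all 8 libraries. Its log2 fold change was 0.11 ± 0.32 (SE; DESeq2 adjusted p = 0.913), with a 95% interval from -0.52 to 0.74, which leaves room for a change of either sign.

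The mix of the 4 ligands, per kilobase of exon, differed between the groups for Fgf7, Fgf10 and Fgf18. Fgf7 made up 41.4% ± 5.41 (SD, n = 4) of their sum in GFP- and 50.8% ± 5.11 in GFP+ libraries. Fgf10 made up 3.39% ± 2.35 and 11.8% ± 3.66, and Fgf18 35.6% ± 7.66 and 19.97% ± 5.20. The ranges of the groups did not overlap for these 3 shares. The share of Fgf2 was 18.7% to 20.4% in GFP- and 14.5% to 21.8% in GFP+ libraries, with overlap. These shares sum to the whole within a library, so that one cannot move without another, and they were not tested.

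**Figure D2:**
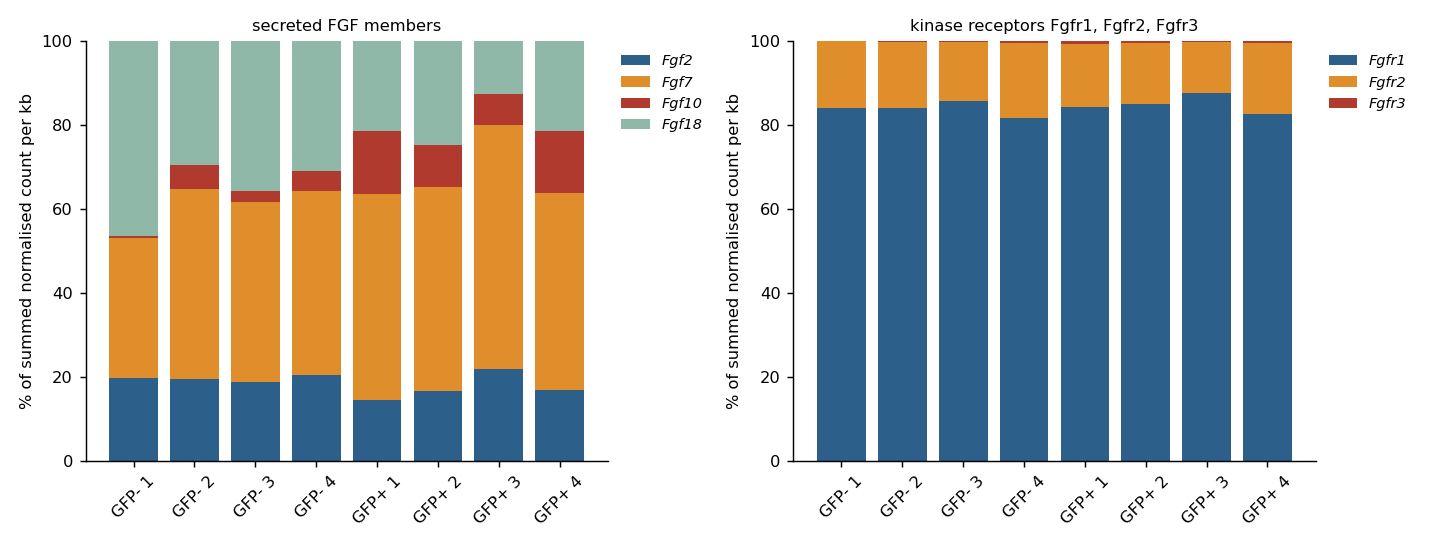
Share of each gene in the summed normalised count per kilobase (vertical axis, percent) of the 4 FGF ligands (left) and of the kinase receptors Fgfr1, Fgfr2 and Fgfr3 (right), 1 bar a library. The Fgf18 share is 29.5% to 46.4% in GFP- and 12.5% to 24.6% in GFP+ libraries, whereas Fgfr1 makes up 81.8% to 87.6% of the kinase receptors in all 8.

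None of the 4 FGF receptor genes was called in either direction, in the main test or in any of the 17 alternative fits (14 for Fgfr3, which had no adjusted p in the other 3), and none had an unadjusted p under 0.05 in DESeq2. The median log2 fold change was 0.29 for these 4 receptors and 0.97 for the 4 ligands, beside -0.0082 for all genes tested. Fgfr1, the main mesenchymal FGF receptor, lies on chromosome 8 (25513654 to 25575718, plus strand). Its count was 3522, 3436, 4966 and 3072 in GFP- and 6200, 4109, 4669 and 3858 in GFP+ replicates 1 to 4. GFP- replicates 1, 2 and 4 lay under every GFP+ library, and the groups overlapped through the shallow GFP- replicate 3, whose value rests on 452 reads. The log2 fold change was 0.34 ± 0.22 (SE; DESeq2 adjusted p = 0.396), with a 95% interval from -0.09 to 0.76. That interval spans a rise of up to 0.76 on the log2 scale and a slight fall.

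Fgfr2, whose IIIb form is the receptor for FGF7 and FGF10, lies on chromosome 7 (130162451 to 133123350, minus strand). Its count was 696, 670, 846 and 699 in GFP- and 1150, 733, 688 and 830 in GFP+ replicates 1 to 4. GFP+ replicate 1 was highest, as for Fgfr1, and the groups overlapped (log2 fold change 0.24 ± 0.21 (SE), 95% interval -0.18 to 0.66, DESeq2 adjusted p = 0.587). The Fgfr2 model overlaps exons of Ctbp2 on the same strand, so some reads may have been left out as ambiguous. Counts per gene do not separate the IIIb and IIIc forms of any receptor. The ratio of Fgf7 to Fgfr2 per kilobase was 1.87 to 3.26 in GFP- and 3.89 to 7.12 in GFP+ libraries, without overlap. That ratio was not tested, and it follows the rise of Fgf7 described above.

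Fgfr3, a receptor of cartilage and epithelia (chromosome 5, 33721674 to 33737068, plus strand), was close to the limit of detection. It had 0, 7, 1 and 18 reads in GFP- and 26, 25, 4 and 32 reads in GFP+ replicates 1 to 4, and the library without a read allows up to 3. On the normalised scale this was 0 to 10.99 in GFP- and 3.07 to 36.1 in GFP+ libraries, and the log2 fold change of 1.37 ± 1.18 (SE; DESeq2 adjusted p = 0.562) showed no difference detectable at this depth. Fgfrl1 (chromosome 5, 108692382 to 108706924, plus strand) encodes an FGF-binding receptor that lacks the kinase domain. Its count was 157, 96.8, 98.9 and 187 in GFP- and 63.9, 107, 154 and 145 in GFP+ replicates 1 to 4, with overlapping groups. The log2 fold change was -0.23 ± 0.39 (SE; DESeq2 adjusted p = 0.822, 95% interval -1.002 to 0.54).

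Among Fgfr1, Fgfr2 and Fgfr3 the mix was alike in the groups. Fgfr1 made up 84.0% ± 1.62 (SD, n = 4) of the summed level per kilobase in GFP- and 85.0% ± 2.04 in GFP+ libraries, and Fgfr2 15.8% ± 1.57 and 14.7% ± 1.92. Fgfr3 was at most 0.678% in any library. Fgfr4, which is not part of that sum, was at 0 to 18.4 in GFP- and 0 to 4.17 in GFP+ libraries, too low for an adjusted p.

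**Figure D3:**
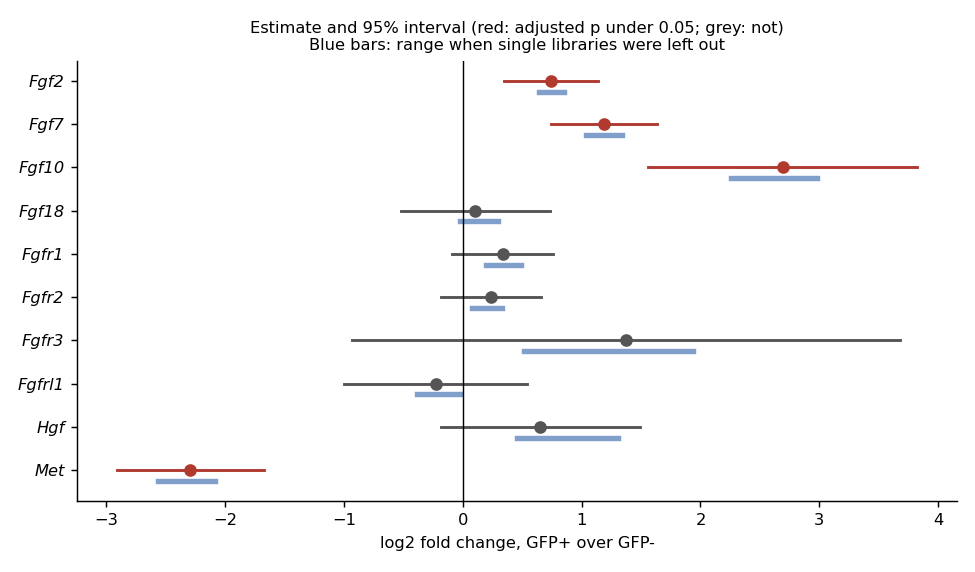
Log2 fold change of GFP+ over GFP- (horizontal axis) for the 10 genes, with the DESeq2 estimate (point) and its 95% interval (line), red where the adjusted p was under 0.05 and grey where it was not. The blue bar under each line is the range when single libraries were left out; it reaches from -0.022 to 0.30 for Fgf18 and up to 1.31 for Hgf.

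Hgf, the ligand of MET (chromosome 5, 16553495 to 16620152, plus strand), was not called. Its count was 430, 135, 154 and 126 in GFP- and 379, 223, 320 and 420 in GFP+ replicates 1 to 4. GFP- replicate 1 was the highest of all 8 libraries, while the other GFP- libraries lay under every GFP+ library. The log2 fold change was 0.65 ± 0.43 (SE; DESeq2 adjusted p = 0.407, 95% interval -0.19 to 1.49). Without GFP- replicate 1, which is also the library with 5 reads of Fgf10, it was 1.31 with an adjusted p of 0.00115 in DESeq2. The call for Hgf thus turned on a single library, and none of the other 16 alternative fits called it. Exons of Gm43489 overlap those of Hgf on the same strand, so some reads may have been left out as ambiguous.

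Met, the receptor tyrosine kinase for HGF, lies on chromosome 6 (17463800 to 17573980, plus strand) and was lower in GFP+ cells. Its count was 4507, 4470, 2747 and 6284 in GFP- and 865, 890, 526 and 1398 in GFP+ replicates 1 to 4. The lowest GFP- library was well above the highest GFP+ library. The log2 fold change was -2.29 ± 0.31 (SE; DESeq2 adjusted p = 1.02e-10, edgeR 0.00127), and all 17 alternative fits called it, at -2.57 to -2.09. The ratio of Hgf to Met per kilobase was 0.0214 to 0.102 in GFP- and 0.267 to 0.649 in GFP+ libraries. By the union of exons, 7186 bases for Hgf and 7679 for Met, Met was the more abundant of the pair in all 8 libraries. Their longest transcripts are 3468 and 6809 bases, and with those lengths the order would not hold in every GFP+ library.

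Melanocyte markers moved with Met. The list held Pmel, Mlana, Tyr, Tyrp1, Dct, Mitf, Sox10, Mlph, Slc45a2, Gpr143, Trpm1 and Oca2, genes of pigment synthesis and of the melanocyte lineage, and all 12 were lower in GFP+ cells, with a median log2 fold change of -3.07. Their summed count was 53010, 48200, 26240 and 76640 in GFP- and 4694, 7817, 4695 and 12110 in GFP+ replicates 1 to 4. In GFP- cells replicate 4 was highest and replicate 3 lowest for the markers and for Met alike. In GFP+ cells replicate 4 was again highest for both, but the low end did not match. Replicates 1 and 3 had marker sums of 4694 and 4695 and Met at 865 and 526. Per 1000 marker counts, Met was at 82.0 to 105 in GFP- and at 112 to 184 in GFP+ libraries. The mean marker sum fell from 51020 in GFP- to 7330 in GFP+ cells. A gene that fell by a smaller factor, or not at all, therefore comes out higher in GFP+ cells on this scale. The same limit holds for the other genes given on it below. Of 7 Schwann cell markers, another Sox10 lineage, 3 were also lower, Gjc3 and Cdh19 among them. Of 8 keratinocyte markers, 4 had an adjusted p and none was called in DESeq2, and the summed level of the 8 was 33.0 to 210 in GFP- and 35.2 to 74.5 in GFP+ libraries. The part of melanocyte-lineage RNA in the level of Met was not tested.

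**Figure D4:**
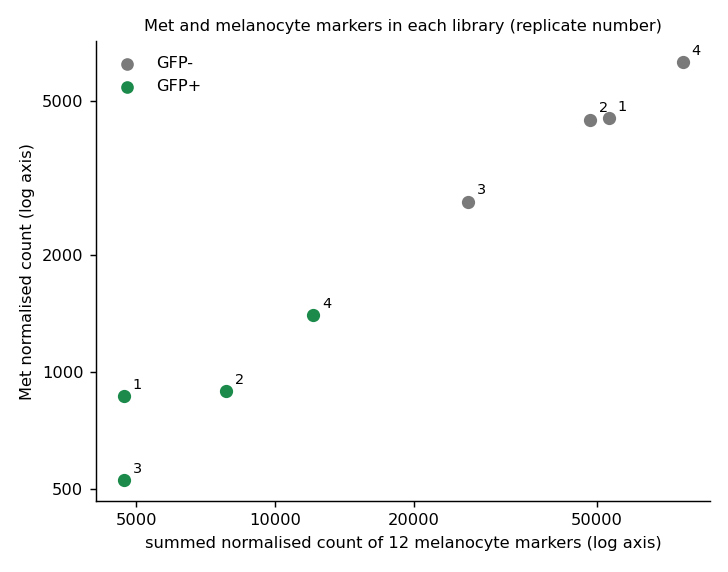
Normalised count of Met (vertical axis) against the summed normalised count of 12 melanocyte markers (horizontal axis), both on log axes, in the 4 GFP- (grey) and 4 GFP+ (green) libraries, with the replicate number beside each point. The GFP+ libraries lie at 4694 to 12110 marker counts and the GFP- libraries at 26240 to 76640, and Met is higher in every GFP- library.

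In the Met promoter 2 searched motifs were found, and the 30 bases around each are shown because Met was the only one of the 9 genes with a RefSeq promoter to hold an AP-1 match. Both are from GRCm38.p6, plus strand, read 5′ to 3′, at chr6:17463819-17463848 and chr6:17463891-17463920, with the matched letters in capitals.
Met, CACGTG: gggacgaacagaCACGTGctggggcgggta
Met, TGANTCA: ctgttgcccggcTGAGTCAcgggccgggca
The first match begins 126 bases and the second 54 bases before the RefSeq start, in a stretch with 74% G and C. In the GENCODE annotation Met begins further upstream, and both matches fall in one of its exons. CACGTG was also found in the promoters of Fgfrl1 and Fgfr2, and CATGTG, as its reverse complement, in 1 of those of Hgf. RefSeq promoters were at hand for 9 of the 10 genes, 11 promoters in all. Over all 32851 RefSeq promoters, TGANTCA was found in 7.81% and CACGTG in 7.15%. An AP-1 match in 1 of 11 promoters is near that share. A match describes letters and is not evidence that a factor binds there.

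Ordered by normalised count per kilobase of exon, Met came first in GFP- cells at 586 ± 188 (SD, n = 4), ahead of Fgfr1 at 380 ± 84.5, with ranges that overlapped. Fgf7 (192 ± 57.9) and Fgf18 (162 ± 46.3) followed, lower than Fgfr1 in every library and overlapping each other. Under them, without overlap, came Fgf2 (89.3 ± 18.9), and then Fgfr2 (70.5 ± 7.74), Fgfrl1 (48.5), Hgf (29.4), Fgf10 (15.5) and Fgfr3 (0.889), each overlapping with the one before. In GFP+ cells the order began with Fgfr1 at 477 ± 106 and Fgf7 at 425 ± 38.7, which overlapped. Lower and without overlap, Fgf18 (168 ± 44.1), Fgf2 (146 ± 22.5), Met (120 ± 46.8), Fgf10 (100 ± 35.7) and Fgfr2 (82.3 ± 20.2) overlapped each with the next. Hgf (46.7) and Fgfrl1 (42.2) overlapped each other but not Fgfr2, and Fgfr3 (2.11) was lower than both in every library. Among 29005 genes with a count, Fgf10 stood at the 62.3rd percentile of levels per kilobase in GFP- and the 87.0th in GFP+ cells, Fgf7 at the 93.3rd and 97.1st, and Met at the 98.3rd and 88.9th. With the length of the longest transcript in place of the union of exons, 5 of the 10 genes kept their place in the order over all libraries.

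Genes whose profile over the 8 libraries was most like that of Fgf7, by the root mean square difference of centered log2 counts among 8812 genes, were Kctd12 (0.17), Ogn (0.17) and Casp1 (0.17). For Fgf18 they were Pcgf5 (0.12), Inpp5a (0.16) and Rad51b (0.16). Ogn, which encodes the matrix proteoglycan osteoglycin, was itself higher in GFP+ cells by 1.32 on the log2 scale (DESeq2 adjusted p = 2.46e-11). This likeness is a description over 8 libraries.

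The wider pathway was read from 10 lists with 91 genes, of which 71 had an adjusted p. Of these, 7 were called higher (9.86%, beside 4.66% of all genes) and 4 lower (5.63%, beside 4.76%). The share of lower calls was near that of all genes. Counts within the single lists below are small and are to be read beside the same shares. Groups that did not overlap are to be read beside 6.37% (GFP+ above) and 5.95% (GFP+ below) of all genes tested. Between the same groups the fibroblast markers described above rose and the melanocyte markers fell. Their part in the levels of the pathway genes was not tested.

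Genes for heparan sulfate proteoglycans, on which FGFs are held and presented to receptors, gave 4 of the 11 calls. Of 11 core protein genes, 10 had an adjusted p, with a median log2 fold change of 0.56, and 3 were higher. Hspg2, the basement membrane proteoglycan perlecan, was 11840 to 19260 in GFP- and 24810 to 32620 in GFP+ libraries (log2 fold change 0.77 ± 0.19 (SE), DESeq2 adjusted p = 0.00171). Sdc4, a syndecan of focal adhesions, went from 859 to 1571 in GFP- to 1715 to 2299 in GFP+ libraries (0.91 ± 0.23, adjusted p = 0.00155). Gpc3, a glypican, went from 4264 to 5527 to 6243 to 8931 (0.66 ± 0.17, adjusted p = 0.00203). The groups did not overlap for any of these 3 genes. Another glypican, Gpc1, was lower, at 934 to 2174 in GFP- and 496 to 747 in GFP+ libraries (-1.42 ± 0.27, adjusted p = 6.39e-06). Its level per 1000 melanocyte marker counts was 28.4 to 35.6 in GFP- and 54.9 to 159 in GFP+ libraries.

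Of 18 genes that build or edit heparan sulfate, 17 had an adjusted p (median log2 fold change 0.028). Of these, 1 was higher and 1 lower, near the 4.66% and 4.76% of all genes tested. Extl3, an enzyme that starts the heparan sulfate chain, was 441 to 571 in GFP- and 829 to 1332 in GFP+ libraries (log2 fold change 0.91 ± 0.22 (SE), DESeq2 adjusted p = 9.24e-04). Hpse, heparanase, which cleaves the chains and so can release bound growth factors, was 670 to 1177 in GFP- and 317 to 552 in GFP+ libraries (-1.12 ± 0.25, adjusted p = 3.09e-04). The groups were separate for both. Per 1000 melanocyte marker counts Hpse was 15.4 to 25.5 in GFP- and 45.6 to 107 in GFP+ libraries. Sulf1 and Sulf2, which remove sulfate groups that FGF signaling needs, had log2 fold changes of -0.10 and -0.40 (adjusted p = 0.852 and 0.212).

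Among 14 feedback regulators and targets of the pathway, 13 had an adjusted p (median log2 fold change 0.31), 1 was higher and 2 were lower. Spry1, an inhibitor of receptor tyrosine kinase signaling, was 89.6 to 175 in GFP- and 201 to 466 in GFP+ libraries (log2 fold change 1.13 ± 0.37 (SE), DESeq2 adjusted p = 0.0306), without overlap. The edgeR test gave an adjusted p of 0.0956, and 9 of 17 alternative fits called the gene. Its DESeq2 adjusted p was 0.0699 to 0.189 without GFP- replicate 1 or 2 or without GFP+ replicate 2 or 4, each left out in turn. Spry2 and Spry4, of the same family, had values of 0.67 and 0.96 (adjusted p = 0.0725 and 0.0732), and were called in 4 and 2 of the 17 alternative fits. With a library left out, Spry2 passed the threshold without GFP+ replicate 2 (adjusted p = 0.0375 in DESeq2) or GFP+ replicate 4 (0.0250), and Spry4 without GFP- replicate 4 (0.0212). Dusp6 and Dusp4, phosphatases that act on ERK and other MAP kinases, were lower. Dusp6 was 231 to 851 in GFP- and 136 to 284 in GFP+ libraries, with overlap at the shallow GFP- replicate 3 (-1.69 ± 0.37, adjusted p = 2.71e-04). Dusp4 was 469 to 1212 in GFP- and 12.5 to 179 in GFP+ libraries, without overlap (-2.85 ± 0.80, adjusted p = 0.00670). Spry1 on the one hand and Dusp4 and Dusp6 on the other, all feedback inhibitors, thus had opposite signs. Per 1000 melanocyte marker counts Dusp4 was 8.86 to 21.8 in GFP- and 2.66 to 21.7 in GFP+ libraries, and Dusp6 8.79 to 16.1 and 17.5 to 39.9. The target transcription factors Etv1, Etv4 and Etv5 were not called (-0.49, -1.62 and 0.33).

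**Figure D5:**
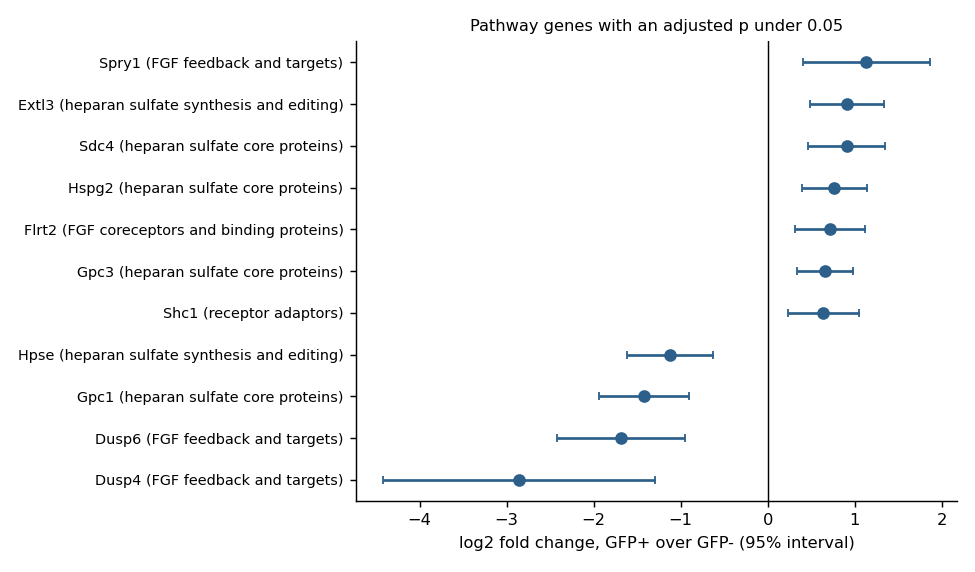
Log2 fold change of GFP+ over GFP- (horizontal axis) with its 95% interval for the 11 pathway genes with a DESeq2 adjusted p under 0.05, with the list of each gene in brackets. The 7 higher genes lie between 0.64 and 1.13, and the 4 lower genes between -2.85 and -1.12.

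Of a list of 8 genes, which held Fgfr4 and 7 coreceptors and binding proteins, 5 had an adjusted p (median log2 fold change -0.69), and of these only Flrt2 was called, a membrane protein that associates with FGF receptors. It was 3296 to 5098 in GFP- and 5224 to 8347 in GFP+ libraries, so that every GFP+ library was higher (0.71 ± 0.21 (SE), DESeq2 adjusted p = 0.00921). It was called in 15 of 17 alternative fits, and not without GFP- replicate 2 (DESeq2 adjusted p = 0.0533) or without GFP+ replicate 3 (0.0683). Of 11 receptor adaptors, Shc1 was higher (0.64 ± 0.21, DESeq2 adjusted p = 0.0293), a call that 7 of 17 alternative fits kept and edgeR did not (adjusted p = 0.0986). Its adjusted p in DESeq2 was 0.0663 to 0.165 when GFP- replicate 1 or 4, or GFP+ replicate 2, 3 or 4, was left out. The median log2 fold change of the 11 adaptors was 0.067. The other adaptors, Frs2, Grb2, Gab1 and Ptpn11 among them, were not called.

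Other FGF ligands were scarce. Of the 14 genes listed, 5 had an adjusted p (median log2 fold change 1.80 at these low counts) and none was called by DESeq2 as fitted here or by edgeR, and Fgf6 had no read in any library. Fgf1 was highest, at 12.2 to 111 in GFP- and 16.1 to 77.2 in GFP+ libraries, with overlap. Fgf23, a hormone-like FGF of bone, was 0 to 33.0 in GFP- and 47.3 to 58.2 in GFP+ libraries, but its log2 fold change of 2.10 ± 0.92 (SE) had a DESeq2 adjusted p of 0.144. It was the 1 gene of the 5 with an unadjusted p under 0.05, and 1 of 17 alternative fits called it, the one with a replicate block. Fgf9 was called in 1 of 17, without GFP- replicate 4 (4.56, DESeq2 adjusted p = 0.0399, against 1.80 and 0.497 with all libraries). The 4 intracellular FGF homologous factors, Fgf11 to Fgf14, were not called either.

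On the HGF side, Plau and Plat, plasminogen activators that can also activate HGF, were abundant but not called. Plau was 2329 to 5470 in GFP- and 2585 to 6124 in GFP+ libraries (log2 fold change 0.20 ± 0.34 (SE), DESeq2 adjusted p = 0.828), and Plat 2039 to 2989 and 2605 to 3465 (0.37 ± 0.17, adjusted p = 0.190). Of 17 alternative fits, 1 called Plat, the one without the shallow GFP- replicate 3 (0.48, adjusted p = 0.0185 in DESeq2), and none called Plau. The dedicated HGF activators were near the limit of detection, Hgfac at a mean of 11.8 in GFP- and 20.8 in GFP+ cells and St14 at 11.1 and 17.3. The inhibitors Spint1 and Spint2 were at means of 13.3 or less. Mst1r, the receptor for the HGF paralog, was at 115 to 267 in GFP- and 164 to 408 in GFP+ libraries and was not called (0.48 ± 0.39, adjusted p = 0.529).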

How the data were processed

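RNA-seq libraries (SMARTer Stranded Total RNA-Seq v2 Pico, NextSeq) had been made from 4 GFP+ and 4 GFP- sorted samples, grouped by their titles. Per the labels, the authors trimmed reads with cutadapt 3.4, mapped them to GRCm38 with STAR 2.7.3a and counted them per Ensembl gene by strand with featureCounts 2.0.1, so reads shared by genes can be lost. The authors deposited raw counts per gene and library, used here, and a rounded normalised score per library, equal to the rounded values computed here (largest difference 0). Columns with the authors' mean, fold change and p-values were left unused; unused per-sample columns: 0.

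In R 4.3.3, 29043 genes with a count were fitted with DESeq2 1.42.0 (group as the only term, default size factors, two-sided Wald test, Benjamini-Hochberg adjustment over 15283 genes; 13443 filtered for low counts, 317 for Cook's distance). The call threshold was an adjusted p of 0.05. Alternatives were edgeR 4.0.16 quasi-likelihood, limma 3.58.1 voom, other scalings and filters, thinned libraries, a replicate block and each library left out. Scripts were tested on simulated data. Library totals of 883144 to 31666734 reads set the precision: counting error alone is largest in GFP- replicate 3. Replicates differed by far more than sampling noise (chi-square per degree of freedom 10.2 to 81.3). The labels give no batch or date.

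Levels per kilobase used the union of exons in GENCODE M21 (GRCm38), which held 53706 of 53801 gene identifiers (99.82%), and promoters came from RefSeq (GRCm38.p6). Likeness of profiles used log2(normalised count + 1) for genes with a mean of at least 100.

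The 10 genes, the lists, tests and alternatives were chosen with earlier results of these data known. The TATAAA search and the levels per 1000 melanocyte marker counts were added after the values had been seen. Named genes were the 10, up to 4 called genes a direction of each pathway list, uncalled list genes the text needed, the sort and marker genes, and the 3 genes most like each of the 2 most abundant ligands. Those for the most abundant FGF receptor and some marker genes are not reported here.

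Of the other marker lists, leukocyte markers (9 of 10 with an adjusted p) and skeletal muscle markers (1 of 4) gave no call. Endothelial markers gave 1 lower, Vwf, mural markers 1 higher, Abcc9, and 1 lower, Mcam, and adipocyte markers 1 higher, Fabp4.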

Additional observations from a re-analysis of the deposited data

Results flagged for a closer look

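In 3 of 42 groups of 4 libraries examined, for the 10 genes and the called pathway genes, 1 library stood apart from the other 3 by Dixon's criterion; chance gives about 1 in 20. Hgf was at 430.1 in GFP- replicate 1, far above the other GFP- libraries at 126 to 154. Fgf18 was at 120.6 in GFP+ replicate 3, under the other GFP+ libraries at 222 to 229. Fgfr2 was at 846.0 in GFP- replicate 3, the shallowest library, where the value rests on 77 reads, above the other GFP- libraries at 670 to 699.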

How the results depend on the processing

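Fgf7, Fgf10 and Met stayed past the threshold, in the same direction, in all 17 alternative fits. Fgf2 lost its call in 3 and Hgf gained one in 1, as given with each gene above. The median log2 fold change of all genes tested was -0.0082 as reported, -0.0042 with TMM factors and -0.024 with size factors from abundant genes, so scaling moved it by less than 0.1. Of the 10 genes, 2 to 4 were called higher, and 1 lower each time, when single libraries were left out. The sign of 2 uncalled genes turned with thinning, to -0.18 for Fgf18 and -0.44 for Fgfr3, and Fgf18 ran from -0.022 to 0.30 with single libraries left out. Over all genes, 712 higher and 727 lower calls became 405 and 327 with edgeR and 439 and 388 after thinning. With an adjusted p under 0.01 they became 419 and 425, and with a log2 fold change of at least 1 they became 374 and 550. They ran from 460 to 937 higher and 469 to 900 lower with single libraries left out, lowest without GFP+ replicate 3 and GFP- replicate 4. Of the 7 pathway genes called higher, 1 had a log2 fold change of at least 1, and the number of pathway genes called higher was 5 to 9 in the other alternatives. The thresholds explain the smaller counts under stricter criteria; for the other shifts the cause was not tested. With the replicate number as a block, 3 of the 10 genes were higher and 1 lower, and 755 and 737 of all genes. Pathway genes called higher became 9, with Fgf23, Spry2 and Spry4 gained (DESeq2 adjusted p = 0.0421, 0.0319 and 0.0408) and Shc1 lost (0.0529). The deviations of same-numbered libraries correlated at -0.16 to 0.26, which gives no evidence that the numbers pair the samples and does not show that they come from different tumors. Depth limits Fgfr3 and the values of GFP- replicate 3, and the GFP- level of Fgf10 rests on 5 to 182 reads a library.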
